A study of Mus musculus with 23 samples.

Results

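Chromosome 1 of the mouse carried 264 of the 3885 regions of 100 bp listed as differentially methylated in liver, the fourth largest number among the 19 autosomes. The members are all regions of the authors' deposited table that lie on this chromosome. They were described in 3 stretches: a proximal stretch before position 100000000 with 105 regions, a middle stretch from there to position 155000000 with 63, and a distal stretch from there to the end with 96. The assay was RRBS (reduced representation bisulfite sequencing): the enzyme MspI cuts liver DNA at each CCGG, short fragments are kept, and bisulfite makes unmethylated cytosines read as thymine. The libraries came from single mice aged 8 to 12 weeks: 6 males and 6 females in which Cre driven by the albumin promoter removed a floxed Stat5a-Stat5b locus from hepatocytes (STAT5ab-KO, KO below), and 6 males and 5 females that carried the floxed locus as controls. The floxed allele was therefore common to all groups and was deleted in KO hepatocytes. All libraries are labelled as a mixed C57BL/6 x 129J background, and the Cre line is labelled FVB/N. Whether KO and control mice differed in strain background was not tested, and such a difference could not be told apart from genotype. Whole liver was used, so cells other than hepatocytes, in which the albumin promoter is not active, are part of every value, and a change in the mix of cells cannot be told apart from a change within hepatocytes. Within a sex, KO and control libraries had no title code in common (codes G130 and G131 in KO males, G131 and G132 in KO females, G128 and G129 in control males, G129 and G130 in control females), so whatever the code stands for cannot be told apart from genotype. Between the sexes, only G129 was common to the control groups and only G131 to the KO groups. The code is therefore largely split by sex too. Titles of all KO females and of no control females also end in -B, as do some titles in each male group. What this ending stands for is not given in the labels. In females it cannot be told apart from genotype, and it is unevenly spread between the sexes.

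STAT5a and STAT5b are closely related transcription factors that are activated by the growth hormone receptor and carry its signal to liver genes. The pattern of growth hormone in plasma differs between male and female mice, and many liver genes that differ between the sexes depend on STAT5b. Methylation of cytosine in CpG dinucleotides is a covalent mark that is low at most active promoters and enhancers and high in most of the rest of the genome. The 4 comparisons ask how methylation differs without STAT5 in males and in females, and between the sexes without and with STAT5.

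Each value is a difference in percent methylation between a pair of groups, in percentage points, as the authors' deposited table gives it. A region was listed for a comparison when the absolute difference exceeded 15 points at a q-value under 0.05, per the legend, and the table holds 0 where it was not listed. A 0 is therefore no measurement of equality. The members were chosen by position, but a region is in the table only because a difference in it was called, so that the counts and sizes below are descriptions and no test was made on them. The table holds no level, coverage or value per mouse, so the depth and the spread between mice behind a difference are unknown here. Positions are in mm9, as the table gives them. Regions are identified by position alone, since no gene annotation of that build was used here.

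Large differences were more frequent on chromosome 1 than over the whole table in 3 of the 4 comparisons, and less frequent between KO males and KO females. Differences of at least 25 points made up 31.6% of the 133 chromosome 1 regions listed for KO males against control males (25.8% over the whole table), 44.3% of the 106 listed for KO females against control females (30.8%) and 39.8% of the 123 listed for control males against control females (24.1%). Among the 33 regions listed for KO males against KO females the share was 15.2% (18.6%). The smallest differences on the chromosome lay just beyond the listing limit, at 15.16 points for KO males minus control males, -15.34 points for KO females minus control females, -15.33 points for KO males minus KO females and -15.11 points for control males minus control females in the authors' deposited table. In all, 160 regions (60.6%, against 67.7% over the whole table) appeared in 1 comparison alone. Another 81 appeared in 2 (30.7%, against 26.5%), 19 in 3 (7.2%, against 4.0%) and 4 in every comparison (1.5%, against 1.8%).

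**Figure D1:**
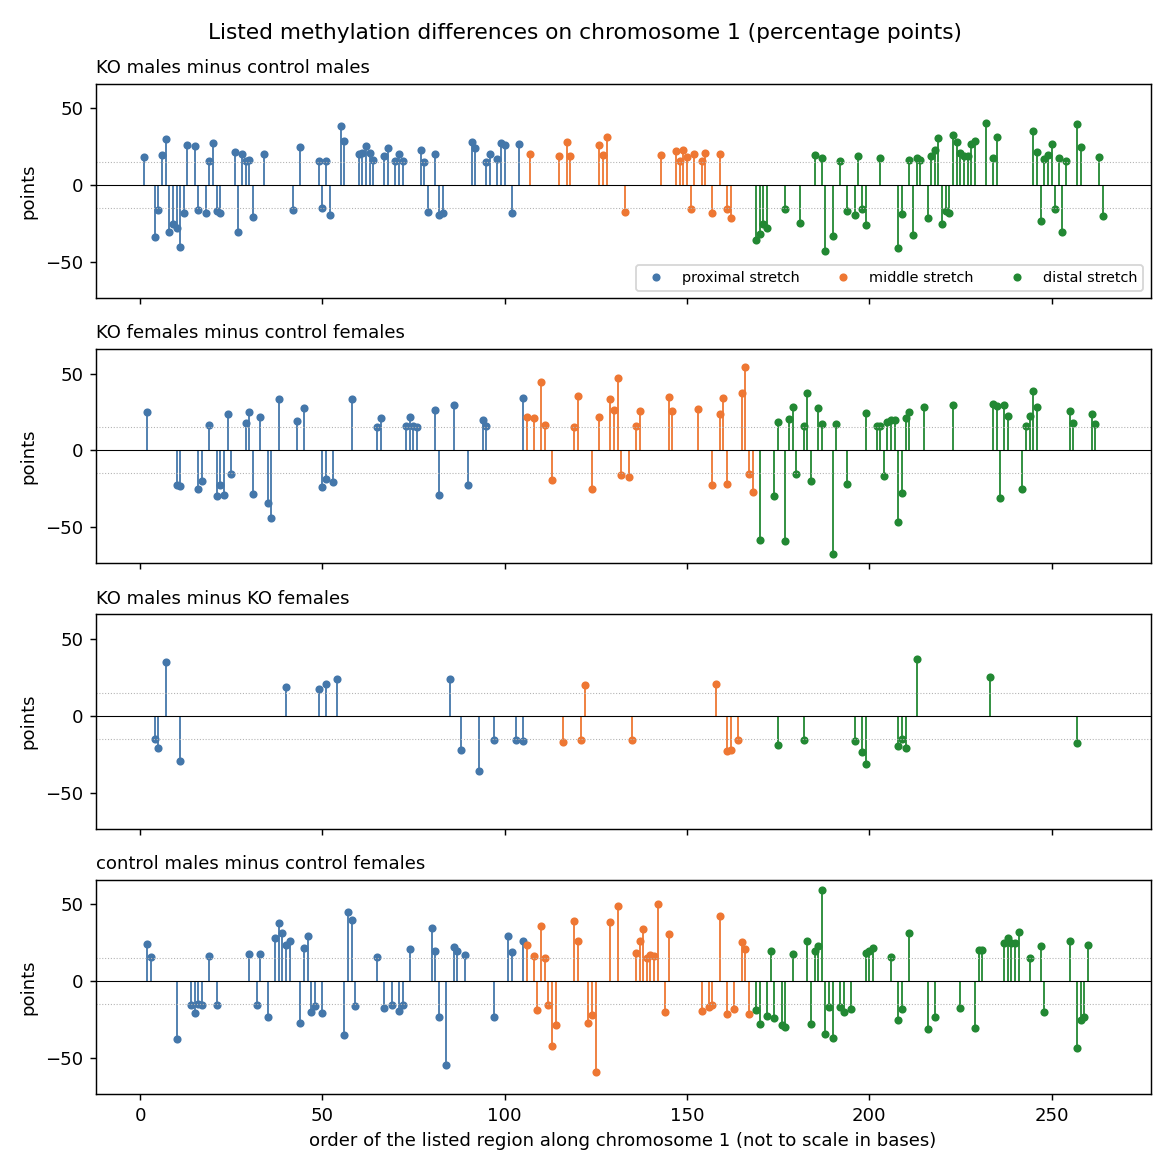
Every listed methylation difference on chromosome 1, in percentage points (vertical axis), by the order of the region along the chromosome (horizontal axis, 264 regions), 1 panel per comparison. Colours mark the 3 stretches and dotted lines the listing limit of 15 points. The largest loss in KO males and that in KO females stand in the distal stretch, and the middle stretch holds few differences between KO males and control males.

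Listing was uneven along the chromosome. In the distal stretch, whose last region starts at 197167901, there were 2.28 regions per Mb, against 1.14 in the proximal stretch (counted from the first region at 5265301) and 1.16 in the middle stretch. From the first region on, windows of 5 Mb held between 1 and 23 regions, with the most at 135 to 140 Mb (23 regions) and 190 to 195 Mb (21 regions). The widest interval without a listed region, 6.09 Mb, followed the region at 5972601 to 5972701. RRBS reads only fragments between CCGG sites and the covered regions are not in the table, so how far density follows coverage was not tested.

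In KO males, 85 chromosome 1 regions were more methylated than in control males and 48 were less methylated. The 133 regions make up 50.4% of the members, against 55.4% over the whole table, and 63.9% of them were higher, against 68.1%. In the proximal stretch 38 of 58 regions were higher (65.5%), in the middle stretch 16 of 21 (76.2%), and in the distal stretch 31 of 54 (57.4%). Of the regions in the middle stretch, 33.3% were listed in this comparison, against 55.2% of the proximal and 56.3% of the distal ones. Median gains were alike, at 20.3, 20.1 and 19.5 points in order along the chromosome. Median losses were -18.5 points in the proximal stretch, -17.7 points in the middle stretch and -24.9 points in the distal stretch, where 11 of 23 losses were of at least 25 points. None of the 5 losses in the middle stretch reached that size, and 6 of the 20 in the proximal stretch did. The order of the middle and distal stretches depended on the boundary between them. With both boundaries 5 Mb further along, 15 of 26 regions were higher in the middle stretch (57.7%) and 31 of 48 in the distal stretch (64.6%), and the median losses were -21.6 points in the middle stretch and -21.2 points in the distal stretch.

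In KO males the largest gain and the largest loss of the chromosome both lay in the distal stretch. In the proximal stretch, the authors' deposited table lists gains of 38.1 points at 58137301 to 58137401, 30.0 points at 20477001 to 20477101 and 28.4 points at 58137401 to 58137501, which adjoins the region named first. The losses there were led by -40.6 points at 26384801 to 26384901, -33.8 points at 12065701 to 12065801 and -30.7 points at 21070401 to 21070501 in the authors' deposited table. All 3 of these losses lay before 30 Mb. In the middle stretch, gains were led in the authors' deposited table by 31.2 points at 132497901 to 132498001, 28.1 points at 119994001 to 119994101 and 25.9 points at 129705301 to 129705401. Losses in that stretch were led in the authors' deposited table by -21.6 points at 152254601 to 152254701, -18.4 points at 145593101 to 145593201 and -17.7 points at 135133901 to 135134001. In the distal stretch, the authors' deposited table has gains of 40.6 points at 186628601 to 186628701, 39.7 points at 193748301 to 193748401 and 35.2 points at 190730401 to 190730501. Distal losses reached -42.8 points at 166908101 to 166908201, -41.0 points at 174464001 to 174464101 and -35.5 points at 155094201 to 155094301 in the authors' deposited table.

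Between KO females and control females, 70 regions were higher and 36 lower in KO females. The 106 regions are 40.2% of the members, against 28.1% over the whole table, and 66.0% of them were higher, against 60.9%. The share of gains was 56.8% in the proximal stretch (21 of 37), 70.4% in the middle stretch (19 of 27) and 71.4% in the distal stretch (30 of 42). The middle stretch thus held more listed regions in females than in males, 27 against 21, while the outer stretches held fewer. Median gains were 21.6 points in the proximal stretch, 26.5 points in the middle stretch and 22.3 points in the distal stretch. Median losses were -23.3 points in the proximal stretch, -20.3 points in the middle stretch and -28.7 points in the distal stretch.

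The 3 largest female gains on the chromosome stood in the middle stretch and the 4 largest losses in the distal stretch. At 154460401 to 154460501 the authors' deposited table gives a gain of 54.4 points, followed in that stretch by 47.2 points at 135112501 to 135112601 and 44.2 points at 106285401 to 106285501. Losses in the middle stretch were smaller, and in the authors' deposited table they were led by -26.8 points at 154895201 to 154895301, -25.1 points at 127333101 to 127333201 and -22.5 points at 145593101 to 145593201. In the distal stretch, the authors' deposited table lists losses of -67.2 points at 167789201 to 167789301, -58.8 points at 158381501 to 158381601 and -58.4 points at 155201101 to 155201201. The next largest female loss on the chromosome was -46.4 points, at 174464001 to 174464101. Distal gains were led in the authors' deposited table by 38.9 points at 190730401 to 190730501, 37.7 points at 161970501 to 161970601 and 30.5 points at 186698201 to 186698301. In the proximal stretch, the authors' deposited table has gains of 34.0 points at 97127201 to 97127301, 33.5 points at 59229901 to 59230001 and 33.5 points at 39395401 to 39395501. The largest losses in the proximal stretch in the authors' deposited table were -43.7 points at 38886901 to 38887001, -34.2 points at 38325001 to 38325101 and -29.9 points at 34312501 to 34312601.

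**Figure D2:**
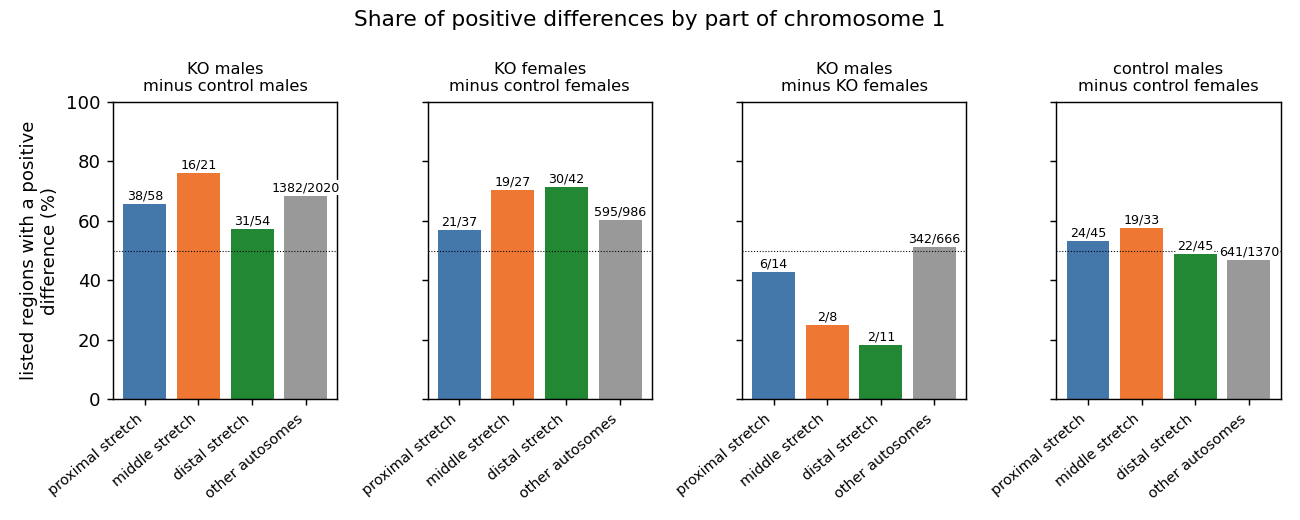
Share of listed regions with a positive difference (%), in each stretch of chromosome 1 and on the other 18 autosomes, 1 panel per comparison, with the counts above each bar and a dotted line at 50%. In the distal stretch the share was 57.4% for KO males minus control males and 71.4% for KO females minus control females, and for KO males minus KO females it was 18.2%.

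Regions listed in both sexes without STAT5 moved in 1 direction at 31 of 33. These 2 comparisons have no library in common. The 33 regions are 12.5% of the members, against 9.91% over the whole table. They are 24.8% of those listed in males (17.9% over the whole table) and 31.1% of those listed in females (35.3%). The share with the same direction was 93.9%, against 79.7% over the whole table, and chromosome 1 ranked seventh of 19 in it. It was 13 of 14 in the proximal stretch, 4 of 4 in the middle stretch and 14 of 15 in the distal stretch. Of the 31 regions, 15 gained and 16 lost methylation in both sexes, whereas 238 gained and 69 lost in both over the whole table. Losses were larger in females at 14 of the 16, with a median of -26.5 points in KO females and -18.7 points in KO males, each against its own controls. Gains were larger in females at 10 of 15, with medians of 24.9 points in KO females and 17.4 points in KO males.

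By median, shared losses were strongest in the distal stretch. For 174464001 to 174464101 the authors' deposited table has -41.0 points in KO males and -46.4 points in KO females, and for 167789201 to 167789301 it has -33.3 points in KO males and -67.2 points in KO females. At 155201101 to 155201201 the same comparison in the authors' deposited table gives -32.2 points in KO males and -58.4 points in KO females. At 158381501 to 158381601 the loss was listed at -15.9 points in KO males and at -58.8 points in KO females in the authors' deposited table. Female losses thus exceeded male losses at all 4 of these regions, and most at the last named. The reverse held at 2 shared losses, both in the proximal stretch. They were -40.63 points in KO males and -23.05 points in KO females at 26384801 to 26384901 in the authors' deposited table. At 24894301 to 24894401 they were -27.64 points in KO males and -22.29 points in KO females. The largest shared gains lay further along. At 190730401 to 190730501 they were 35.2 points in KO males and 38.9 points in KO females, and at the adjoining 190730501 to 190730601 they were 21.2 and 28.3 points in the authors' deposited table. At 184734501 to 184734601 the authors' deposited table has 32.3 points in KO males and 29.3 points in KO females, and at 186698701 to 186698801 it has 31.0 and 29.1 points. In the middle stretch the authors' deposited table has shared gains at 129705301 to 129705401, with 25.9 points in KO males and 21.5 points in KO females, and at 146683601 to 146683701, with 20.1 points in KO males and 23.9 points in KO females.

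The 2 regions with opposite changes lay in the outer stretches. At 172526201 to 172526301 the change was -26.0 points in KO males and 24.0 points in KO females in the authors' deposited table. The sex difference there was -31.6 points in KO mice and 18.4 points in controls, so that males were the less methylated sex without STAT5 and the more methylated sex with it. At 53049001 to 53049101 the changes were 15.9 points in KO males and -18.5 points in KO females, and KO males exceeded KO females by 20.5 points, all from the authors' deposited table. No sex difference between controls was listed at that region.

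KO males differed from KO females at 33 regions, 12.5% of the members, against 18% over the whole table. KO males were higher at 10 and lower at 23. The share higher, 30.3%, was the lowest of the 19 autosomes, which had a median of 47.1%, against 50.4% over the whole table. KO males were lower at 8 of 14 regions in the proximal stretch, 6 of 8 in the middle stretch and 9 of 11 in the distal stretch. Between 155808801 and 176768401 all 8 listed regions in a row were lower in KO males, with a mean of -20.3 points. The 3 listed regions just before them, from 152254501 to 153469001 in the middle stretch, were lower too, so this row began before the boundary. The largest differences in the authors' deposited table were 35.2 points at 20477001 to 20477101 and -35.7 points at 90139201 to 90139301 in the proximal stretch. In the middle stretch the authors' deposited table lists 20.5 points at 146671701 to 146671801 and -23.0 points at 152254501 to 152254601. In the distal stretch it was 37.0 points at 179899601 to 179899701 and -31.6 points at 172526201 to 172526301 in the authors' deposited table.

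Control males differed from control females at 123 regions, 46.6% of the members, against 38.4% over the whole table, with 65 higher and 58 lower in control males. The share higher was 52.8%, against 47.3%. It was 53.3% in the proximal stretch (24 of 45), 57.6% in the middle stretch (19 of 33) and 48.9% in the distal stretch (22 of 45). Differences were largest in the middle stretch for regions higher in control males, with a median of 26.1 points, against 22.9 points before it and 23.1 points after it. A run of 9 listed regions from 134286501 to 137580101 was higher in control males throughout, with a mean of 29.5 points and a range of 15.3 to 50.5 points. The authors' deposited table gives 50.5 points at 137580001 to 137580101 and -59.4 points at 127782801 to 127782901 as the extremes of the middle stretch. In the proximal stretch the extremes were 44.9 points at 58972601 to 58972701 and -54.6 points at 82895701 to 82895801 in the authors' deposited table. All 4 of these regions were listed in no other comparison. In the distal stretch the authors' deposited table has 59.6 points at 163254901 to 163255001 and -43.3 points at 193748301 to 193748401.

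Of the 8 regions listed in both sex comparisons (of 264 members, against 4.71% over the whole table), which have no library in common, 6 had the same direction in KO mice and in controls, against 47.5% over the whole table. Males were higher in both at 39790901 to 39791001, with 18.5 points in KO mice and 23.7 points in controls in the authors' deposited table. Males were lower in both at 5 regions, among them 174464001 to 174464101 with -19.7 points in KO mice and -25.1 points in controls in the authors' deposited table. Beside the region at 172526201 described above, the direction was opposite at 97127201 to 97127301, where the authors' deposited table gives -16.1 points in KO mice and 26.4 points in controls.

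The remaining pairs of comparisons share a group of libraries, and a shared group by itself favours 1 relation of signs. For KO females against control females and control males against control females, which share the control females, it favours the same sign. All 56 chromosome 1 regions listed in both had the same sign, 37 positive and 19 negative, against 389 of 419 over the whole table. They are 52.8% of the KO female list on the chromosome (38.4% over the whole table) and 45.5% of the control sex list (28.1%). In the middle stretch they are 70.4% and 57.6%. The median differences of the 37 were 25.4 points for KO females minus control females and 24.4 points for control males minus control females. KO males against control males and KO males against KO females share the KO males, which favours the same sign. Signs were the same at 14 of 15 regions (93.3%, against 89.9% over the whole table). In KO females against control females and KO males against KO females, the KO females enter on opposite sides, which favours opposite signs. Signs were the same at 4 of the 10 regions listed in both (40.0%, against 14.4%).

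For KO males against control males and control males against control females the control males enter on opposite sides, which favours opposite signs. On chromosome 1 the signs were nevertheless the same at 23 of the 40 regions listed in both (57.5%), the largest share of the 19 autosomes. On the other 18 it was 25 of 414 regions (6.04%), with at most 33.3% on any of them (7 of 21 on chromosome 2). Same signs were found at 8 of 15 regions in the proximal stretch, 3 of 4 in the middle stretch and 12 of 21 in the distal stretch. At these 23 regions KO males lay beyond control males on the side away from control females, lower at 16 and higher at 7. At 18 of the 23, KO females were listed on that same side of control females, 12 lower and 6 higher, and at the other 5, all in the distal stretch, KO females were not listed against control females. These counts describe the listed regions, and no test of the difference from other chromosomes was made.

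**Figure D3:**
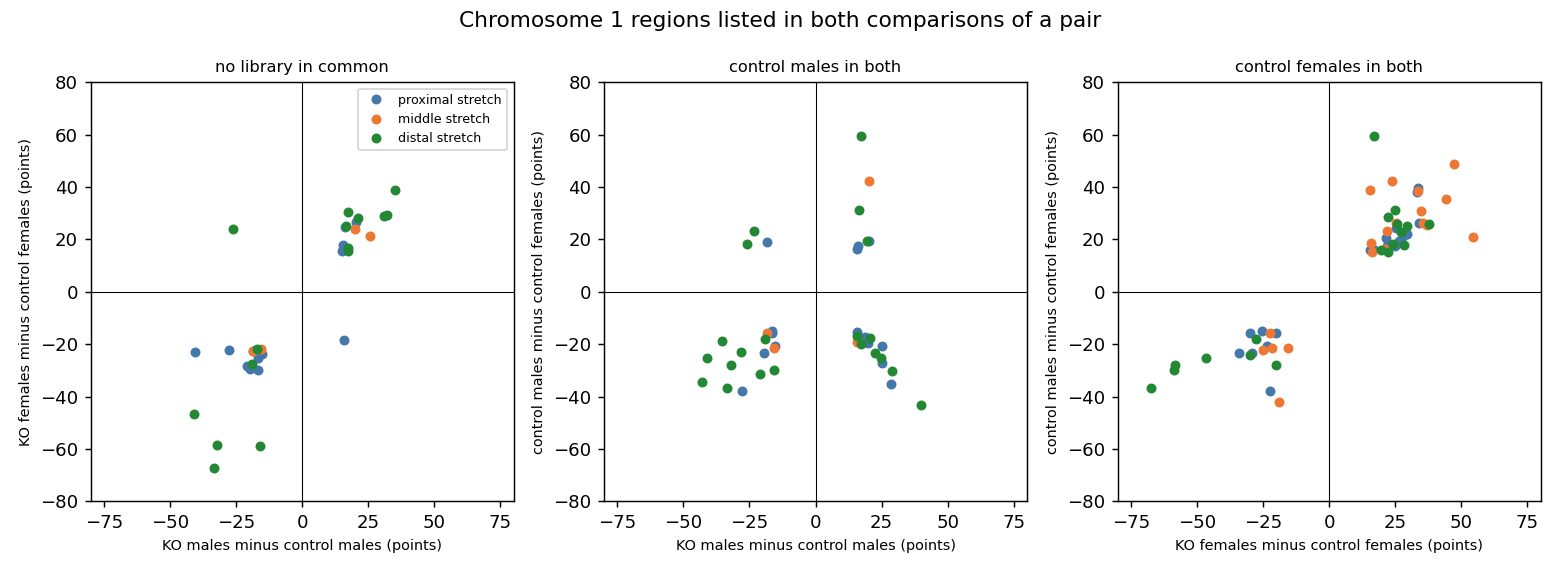
Differences in percentage points for chromosome 1 regions listed in both comparisons of a pair, coloured by stretch. Left, KO females minus control females against KO males minus control males (33 regions, 31 of 1 sign in both). Centre, control males minus control females against KO males minus control males (40 regions, 23 of 1 sign in both). Right, control males minus control females against KO females minus control females (56 regions, all of 1 sign in both). The band without points around each axis comes from the listing limit.

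The 12 regions that were lower in all 3 of these comparisons had medians of -18.7 points for KO males minus control males, -28.5 points for KO females minus control females and -22.5 points for control males minus control females. Adding the first and the last of these would place KO males at a median of -40.2 points from control females, within a range of -70.1 to -31.6 points. Such sums are approximate, since the columns did not always close, with a miss of 7.50 points at 152254501. An example is 167789201 to 167789301, where the authors' deposited table has -33.3 points for KO males minus control males, -67.2 points for KO females minus control females and -36.7 points for control males minus control females, so that the sum for KO males, -70.1 points, lies close to KO females. At 155201101 to 155201201 the authors' deposited table has -32.2, -58.4 and -28.0 points in the same order, and the sum was -60.2 points. Control females were thus the most methylated group at both, control males were lower, and both KO groups were lowest. The 6 regions that were higher in all 3 had medians of 16.9, 24.4 and 25.3 points in that order. Over the 18 regions, the sum for KO males and the listed value for KO females were a median of 13.1 points apart and lay within 15 points of each other at 11. At 5 of the 18 the sum implies a KO sex difference over 15 points that was not listed, up to 60.1 points at 163254901.

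**Figure D4:**
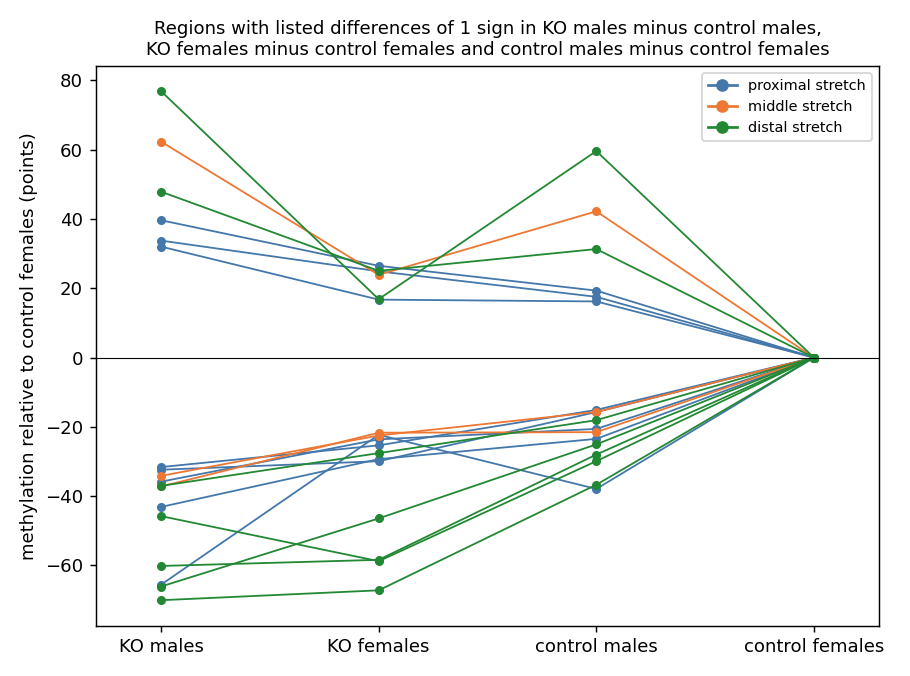
Methylation relative to control females (points, set at 0) at the 18 chromosome 1 regions with differences of 1 sign in 3 comparisons, 1 line per region, coloured by stretch. KO females and control males are listed values and KO males are the sum of 2 listed values, which is approximate. At 5 of the 18 regions this sum implies a KO sex difference over 15 points that was not listed. In every region KO males lie further from control females than control males do, which follows from how the regions were picked.

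Regions listed in exactly 2 comparisons that share a group were also counted by the group that stood apart. Control females were lower than both KO females and control males at 29 regions, 11.0% of the members, against 3.60% over the whole table. They made up 20.6% of the regions in the middle stretch (13 of 63), against 7.62% in the proximal stretch (8 of 105) and 8.33% in the distal stretch (8 of 96). In those 13 regions the median was 33.5 points for KO females minus control females and 26.1 points for control males minus control females. The region at 135112501 to 135112601 had 47.2 points for KO females minus control females and 48.7 points for control males minus control females in the authors' deposited table. At 106285401 to 106285501 these were 44.2 and 35.6 points, and at 154460401 to 154460501 they were 54.4 and 21.1 points in the authors' deposited table. Control males were lower than both KO males and control females at 13 regions (4.92%, against 5.12% over the whole table), 6 in the proximal stretch, 1 in the middle stretch and 6 in the distal stretch. The opposite patterns were rarer, with control females higher than both groups at 7 regions (2.65%, against 2.81%) and control males higher than both at 2 (0.758%, against 1.96%). KO females were higher than both KO males and control females at 3 regions, all in the distal stretch (1.14%, against 0.927% over the whole table), and lower than both at none, against 1.0%. KO males were lower than both KO females and control males at 5 regions (1.89%, against 2.14%) and higher than both at 3 (1.14%, against 1.7%).

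The distal stretch was itself uneven. When it was divided at 180 Mb, a point chosen after the values were seen, methylation was above that of control males at 7 of 22 KO male regions before 180 Mb (31.8%) and at 24 of 32 from there on (75.0%). Losses of at least 25 points in KO males numbered 9 before 180 Mb and 2 after it, and gains of that size 0 and 10. In KO females 16 of 26 regions before 180 Mb were higher than in control females, and 14 of 16 from there on. KO males were lower than KO females at 8 of 9 regions before 180 Mb, and 2 regions were listed beyond, 1 of them lower. A run of 12 listed regions from 184734501 to 190730601 was higher in KO males throughout, with a mean of 26.6 points, and 8 listed regions in a row from 190728101 to 194116901 were higher in KO females, with a mean of 23.7 points. In the proximal stretch the longest run in KO males held 14 regions, from 58137301 to 74784101, all higher than in control males with a mean of 21.6 points, and the longest in KO females held 8, from 59229901 to 78817001, with a mean gain of 20.6 points. In the middle stretch the longest runs were 7 regions higher in KO males from 102677701 to 132498001 and 5 higher in KO females from 135960101 to 140446901.

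At the boundaries, neighbours were of several kinds. The last region of the middle stretch, 154895201 to 154895301, was listed only for KO females against control females, at -26.8 points in the authors' deposited table. The first distal region, 155094201 to 155094301, had -35.5 points for KO males minus control males and -18.8 points for control males minus control females in the authors' deposited table. At the other boundary, the regions on either side, 97127201 to 97127301 and 100786201 to 100786301, were both higher in KO females than in control females, by 34.0 and 21.8 points in the authors' deposited table, and both higher in control males than in control females.

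Close neighbours shared their direction. Within a comparison, 40 of 41 successive listed regions within 1 kb had the same sign, against 96.7% over the whole table, and 36 pairs of neighbouring members lay this close, 30 of them adjoining. The exception was between control males and control females, with -23.6 points at 193770401 to 193770501 and 23.5 points at 193771301 to 193771401, 900 bp away, in the authors' deposited table. Beyond 1 kb, over the 4 comparisons together, the agreement was 24 of 41 up to 100 kb (58.5%, against 65.7% over the whole table), 71 of 129 up to 1 Mb (55.0%, against 61.3%) and 99 of 180 over 1 Mb (55.0%, against 54.3%). Up to 100 kb it was 14 of 19 for KO males against control males (73.7%, against 68.2% over the whole table) and 3 of 11 for KO females against control females (27.3%, against 59.6%). Median spacing was 288 kb, and 187 members had no other listed region within 10 kb.

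Groups of 3 or more regions with neighbours within 10 kb numbered 5, and all their listed differences were positive. At 74144801 to 74145201, 4 adjoining regions were higher in KO females than in control females by a mean of 17.1 points. At 138739301 to 138739601, 3 adjoining regions gained a mean of 20.3 points in KO males against control males. At 190728101 to 190730601, all 4 regions were higher in KO females (mean 26.3 points) and 2 of them in KO males (mean 28.2 points), each against its own controls. The others, at 135960101 to 135960701 and 189454401 to 189454701, held 3 regions each that were higher in control males than in control females, by means of 26.3 and 27.3 points.

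The 4 columns can be set against each other, since the KO sex difference equals the control sex difference plus the KO change in males minus the KO change in females wherever each group has a single level. At the 4 regions listed in all comparisons the sum differed from the listed KO sex difference by -0.01 points at 172526201, 0.00 points at 174464001, 5.88 points at 174475901 and 7.50 points at 152254501. Of the 15 regions where only the KO sex difference was not listed, the sum exceeded 15 points in size at 5. At 163254901 to 163255001 it was 60.1 points, at 24894301 to 24894401 it was -43.3 points and at 146683601 to 146683701 it was 38.5 points. No KO sex difference was listed there, and whether these regions were covered or failed the q-value in that comparison is unknown. At 3 regions a pair of comparisons gave the same size with opposite sign, as at 176768301 to 176768401, where the authors' deposited table has -21.19 points for KO males minus KO females and 21.19 points for KO females minus control females. By the same arithmetic, which missed by 7.50 points at 152254501, the groups that such a pair does not share would have equal levels. Those groups, KO males and control females, were not compared directly. At 186617201 to 186617401 and at 189454401 to 189454601, adjoining regions carry the same value for control males minus control females, 20.35 points and 25.03 points in the authors' deposited table.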

How the data were processed

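RRBS libraries were compared by the authors in 4 pairs of groups. The authors deposited differences in percent methylation (percentage points, the group named first minus the other) for 100 bp regions with an absolute difference above 15 and a q-value under 0.05, per the legend. Per the submitters' processing notes, positions refer to mm9 and the tools were Trim Galore 0.4.3, Bismark and methylKit. Tool settings and coverage minimum were not given in the sources used here. The groups written WT were taken to be the floxed controls, the only mice without the knockout in the labels. Per-mouse values were not analysed here, so no test, standard deviation or depth is given.

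Counts, shares, medians and sums of differences were computed with Python 3.11.15 and pandas 2.3.3. A region belonged to the stretch that held its start. The same functions recovered known counts in a simulated table. Regions were named by position as the 3 largest gains and losses per stretch in KO against control, the largest per stretch between the sexes, all regions listed in 4 comparisons, opposite KO changes, longest runs, groups within 10 kb and neighbours of the boundaries. The members, stretches and rules were chosen with earlier results of these data known. Further regions were named for the agreement between columns after their values were seen. Alternatives were a minimum of 25 points, merging of neighbours within 10 kb and boundaries moved by 5 Mb.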

Additional observations from a re-analysis of the deposited data

How the results depend on the processing

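Of 125 recomputed shares and medians, 118 stayed within the 95% exact binomial interval of the share (or 1 standard deviation between regions, for medians). The alternatives use mostly the same regions, and the interval is wide where few are listed, so this count is no measure of stability. The middle stretch's share of gains in KO males, for example, counted as within the interval although it went from 76.2% to 57.7%. Merging neighbours within 10 kb moved none of 24. At a minimum of 25 points, the share of gains in KO males became 100.0% of 3 regions in the middle stretch, and the share higher in control males than control females became 71.4% of 14 in the proximal stretch. The same minimum gave 100.0% agreement of the 2 KO against control comparisons on the chromosome and in the distal stretch, which held all 6 regions. With the boundaries 5 Mb towards the start, agreement of the 2 sex comparisons was 100.0% of 2 regions in the proximal stretch and 0.0% of 1 in the middle stretch. With them 5 Mb towards the end, the middle stretch took in losses of the distal stretch, and for KO males the order of these stretches turned, with median losses of -21.6 points (middle) and -21.2 points (distal) and shares of gains of 57.7% and 64.6%. Under that shift the share higher in control males was also lower in the middle stretch (50.0%) than in the distal stretch (54.1%), and KO males were higher than KO females at 20.0% and 22.2%. At 25 points, no region was left for some shares of the sex comparisons. No paired analysis was possible because the table holds differences between groups and no value per mouse, and for the same reason no replicate could be left out. The depth behind each difference is unknown, and regions are not independent of each other.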
